A study of Mus musculus with 6 samples.

Results

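Cplane1, Intu, Fuz and Wdpcp are the 4 genes described here, out of 41388 gene identifiers in the deposited count table. They were taken by gene name and matched to Ensembl identifiers, and all 4 were among the 12988 genes with enough counts to be tested. Cplane1 was selected on its measured difference between Atp7b-/- and wild type livers in these same libraries, and the other 3 were chosen as its partners. The values of the 4 genes in that contrast are therefore a description, and no test is given for them beyond naming which were called.

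The 4 genes encode the ciliogenesis and planar polarity effectors, a group known as CPLANE. Intu (inturned), Fuz (fuzzy) and Wdpcp (fritz) are the vertebrate forms of fly genes that act downstream of the core planar polarity proteins, which orient cells within a sheet of tissue. In vertebrates the CPLANE proteins sit at the base of the cilium, recruit peripheral parts of the intraflagellar transport complex A (IFT-A) and are needed to build the axoneme. In people, variants of CPLANE1 are a cause of Joubert syndrome, a ciliopathy. In the liver the primary cilium is carried by cholangiocytes, the cells that line bile ducts, while hepatocytes are generally without one.

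Liver RNA was sequenced from Atp7b-/- mice (3 libraries) and wild type mice (3 libraries), all 6 weeks old and of mixed C57BL and 129S6/SvEv background. All were fed a diet with 16 ppm copper, for which the labels also give zinc and iron contents, the same in both genotypes. Atp7b encodes the copper-exporting ATPase that is defective in Wilson disease; which part of the gene was removed is not stated in the labels. Atp7b-/- replicate 3 and wild type replicate 1 were sequenced as read pairs and the other 4 libraries as single reads of 54 bases. The labels do not state that each library is a separate animal, so that p-values reflect only library-to-library spread, part of which may be technical.

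Total counts were 6746192 to 25973968 in Atp7b-/- libraries and 5919389 to 23651080 in wild type libraries. Atp7b itself stood at 19.2, 13.7 and 13.3 CPM (reads relative to library size, after TMM scaling) in Atp7b-/- replicates 1 to 3. In the wild type libraries it stood at 25.3, 85.2 and 59.7 CPM, so that the genotypes did not overlap. The sequencing layout is the other large difference between libraries, and 52.8% of the genes tested differed between paired-end and single-end libraries. Atp7b-/- replicates 1 and 2 and wild type replicate 1 are labelled male, and the other libraries female. Within each layout labelled sex thus follows the genotype. Labelled sex did not match the sex-linked transcripts everywhere. Atp7b-/- replicate 3 is labelled female, yet had 0.482 CPM of Xist, the RNA that silences an X chromosome in females, and 126 CPM of the Y-linked Ddx3y. Wild type replicate 3, also labelled female, had 17.4 CPM of Xist together with 28 CPM of Ddx3y. Wild type replicate 2 was the single library with high Xist (371 CPM) and little Ddx3y (0.34 CPM). All 3 Atp7b-/- libraries had low Xist (0.702 CPM at most) and clear Ddx3y (29.5 CPM at least). Sex by these transcripts is thus partly tied to genotype, and the effects of the 2 cannot be fully told apart. Leaving out 1 library at a time does not undo this. Results without each of these 3 libraries are given beside the main values.

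Cplane1 (ENSMUSG00000039801) lies on chromosome 15 from 8169106 to 8271158, plus strand, build GRCm38, and its annotated exons merge into 52 blocks with 13095 bases. Its promoter is printed because Cplane1 is the member whose level differed most between the genotypes, and that of Wdpcp because its CPM ranges also did not overlap. Both are from RefSeq (GRCm38.p6) and run from 250 bases before to 50 bases after the gene start that RefSeq gives. That start is the GENCODE gene start for Cplane1 and Fuz, but lies 46 bases inside it for Wdpcp and 9481 bases inside it for Intu, whose window was searched for motifs below. The Cplane1 window is chr15:8168856-8169155 and the Wdpcp window chr11:21572031-21572330, both on the plus strand. Capitals mark GC boxes in the Cplane1 promoter and X-boxes, the sites of the RFX factors that act on many ciliary genes, in the Wdpcp promoter.

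Cplane1: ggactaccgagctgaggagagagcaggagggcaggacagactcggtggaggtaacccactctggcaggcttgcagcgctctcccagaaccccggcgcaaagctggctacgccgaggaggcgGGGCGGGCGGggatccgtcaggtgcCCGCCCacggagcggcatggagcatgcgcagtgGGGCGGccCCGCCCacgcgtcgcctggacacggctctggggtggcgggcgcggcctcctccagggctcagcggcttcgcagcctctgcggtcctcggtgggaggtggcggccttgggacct

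Wdpcp: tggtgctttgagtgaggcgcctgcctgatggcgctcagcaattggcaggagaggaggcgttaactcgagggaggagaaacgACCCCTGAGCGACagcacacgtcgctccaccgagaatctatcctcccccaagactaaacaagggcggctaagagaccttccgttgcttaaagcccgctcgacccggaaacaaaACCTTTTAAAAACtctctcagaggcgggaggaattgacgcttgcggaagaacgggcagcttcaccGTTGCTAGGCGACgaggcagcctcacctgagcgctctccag

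The Cplane1 promoter consists of G and C for 72.7% of its bases, which is more than in 94.3% of 32851 mouse promoters of the same length (median 52.7%). It holds 29 CG pairs, against a median of 7. The GC box, GGGCGG on either strand, occurs 5 times in it, and 2 of these matches overlap. At least 1 GC box was found in 35.7% of all promoters. The X-box was searched on both strands with a loose pattern that 34.7% of promoters match. It has 4 matches in the Wdpcp promoter, 2 of which are the same bases read on opposite strands, and 2 matches each in the promoters of Intu, where they too are the same bases on opposite strands, and Fuz. These letters are not in the Cplane1 window. The core of the metal response element (TGCACNC or TGCGCNC, either strand), the sequence bound by the zinc-sensing factor MTF1, occurs in 25.7% of promoters. It has 1 match in the Intu window and none in those of Cplane1, Fuz and Wdpcp. A match is a string of letters in the reference genome and says nothing on binding in these livers.

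Cplane1 was far higher in Atp7b-/- livers. It encodes a large protein of the CPLANE group. Its level was 444, 224 and 446 CPM in Atp7b-/- replicates 1 to 3, from 7612, 1594 and 12940 reads. In the wild type libraries it was 10.4, 10.4 and 12.2 CPM, from 227, 122 and 66 reads. The lowest Atp7b-/- library thus stood well above the highest wild type library, and within the Atp7b-/- group replicate 2 was the lowest. The means were 371 ± 128 CPM in Atp7b-/- and 11 ± 1.08 CPM in wild type livers (SD, n = 3 each), a 33.8-fold difference. The difference was of like size within each layout, 43-fold in the paired-end libraries (446 against 10.4 CPM) and 29.5-fold in the single-end libraries (means of 334 and 11.3 CPM).

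**Figure D1:**
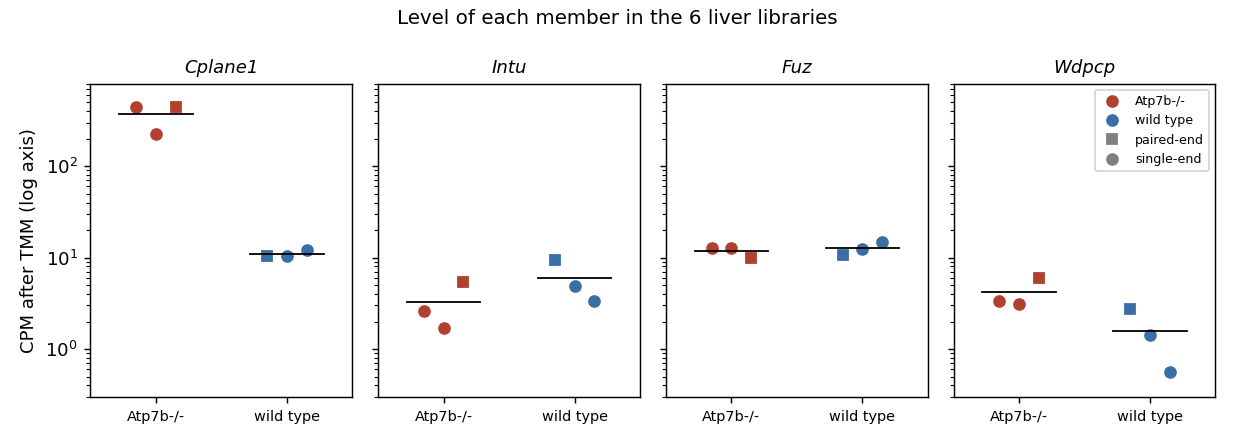
CPM after TMM normalization (log axis) of the 4 genes in each library, with Atp7b-/- left of wild type in each panel. Squares are paired-end and circles single-end libraries, and the bar is the mean of 3 libraries. Cplane1 lies between 224 and 446 CPM in Atp7b-/- and between 10.4 and 12.2 CPM in wild type livers, while the groups overlap for Intu and Fuz.

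On the log2 scale of the edgeR fit with layout as a term, the Cplane1 difference was 5.07 (SE 0.33), as against a median of -0.01 over all genes tested. Across the 13 alternative fits it lay between 4.82 and 5.36. It was 4.90 without Atp7b-/- replicate 3, 5.07 without wild type replicate 2 and 5.19 without wild type replicate 3, the libraries named above for their sex-linked transcripts. Of the 12988 genes tested 15 had a higher log2 fold change, all with a lower mean log2 CPM over the 6 libraries. Among the 2328 genes with a mean log2 CPM at or above that of Cplane1 none had a higher one. That mean is raised by the Atp7b-/- values of Cplane1 itself, and these ranks only describe the contrast that chose it. The call of Cplane1 that led to its choice is 1 of 247 calls for a higher level in Atp7b-/- livers, or 1.9% of genes tested. Calls in either direction numbered 323, or 2.49%. Of the 4 genes, 1 was called in this main fit, and nothing is read from that share because this contrast chose the genes. The call was lost in the fits without layout, which called no gene at all (545 genes at an unadjusted p under 0.05 with genotype alone).

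**Figure D2:**
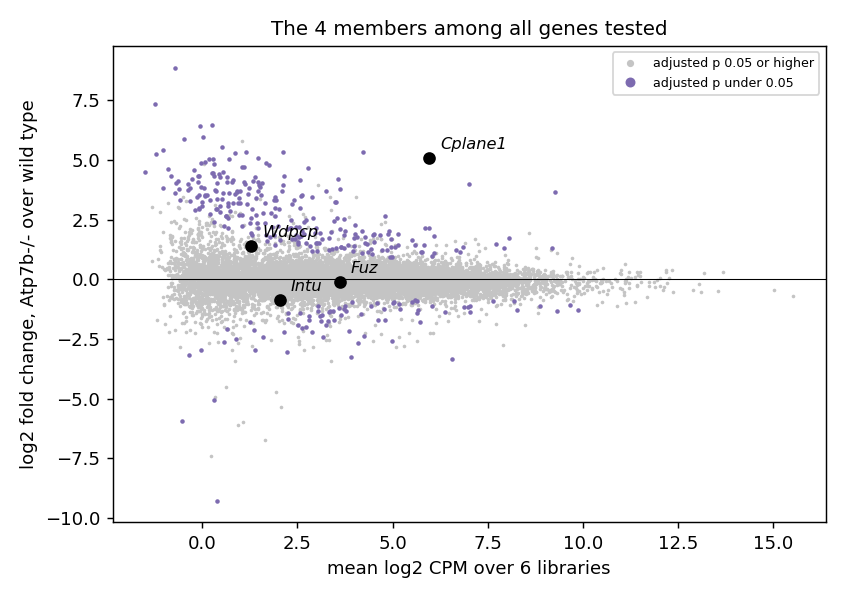
Log2 fold change (Atp7b-/- over wild type) against mean log2 CPM over the 6 libraries for the 12988 genes tested, with genes at an adjusted p under 0.05 in purple and the 4 genes in black. Cplane1 sits at 5.07, apart from other genes of like mean over the 6 libraries, a mean that its Atp7b-/- values raise.

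The genes on either side of Cplane1 did not pass the test, and their genotypes overlapped. Nup155, a nucleoporin gene that ends 7858 bases before Cplane1 on the same strand, stood at 27.5, 26.5 and 46.6 CPM in Atp7b-/- replicates 1 to 3, against 39.4, 18.4 and 16.1 CPM in the 3 wild type libraries. Its log2 fold change was 0.50 (SE 0.19, edgeR adjusted p = 0.267). Nipbl, which encodes the loader of cohesin onto chromosomes, lies 19458 bases beyond Cplane1 on the opposite strand. It stood at 35.9, 37.6 and 67.3 CPM in Atp7b-/- replicates 1 to 3 and at 74.1, 38.3 and 42.8 CPM in the 3 wild type libraries (log2 fold change -0.14, SE 0.17, edgeR adjusted p = 0.778). For both neighbours the paired-end libraries were the highest. No other gene's exons overlap those of Cplane1 in the annotation. The small nuclear RNA gene Gm24144, within its span, had 1 read in all 6 libraries.

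**Figure D3:**
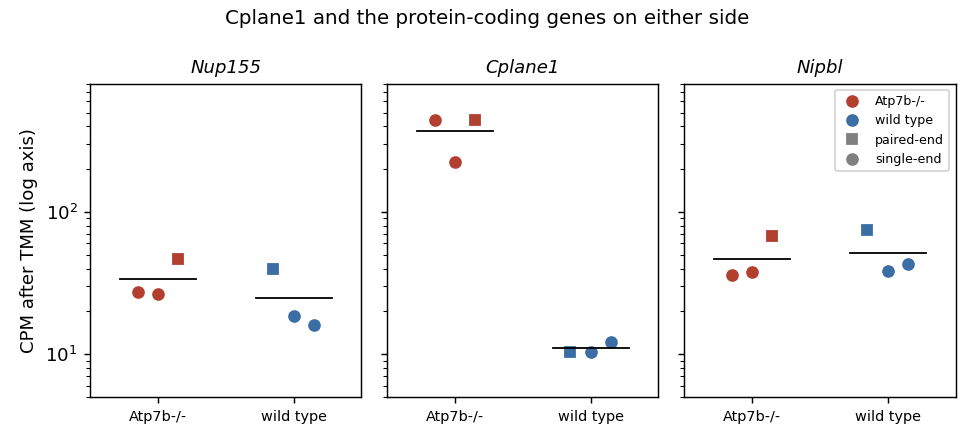
CPM after TMM normalization (log axis) of Nup155, Cplane1 and Nipbl, in their order along the chromosome, with Atp7b-/- left of wild type. Squares are paired-end and circles single-end libraries, and bars are means. Only the Cplane1 panel shows groups that do not overlap.

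Intu encodes a PDZ-domain protein that pairs with the Fuz protein. On chromosome 3 (40531286 to 40704774, plus strand, GRCm38) it had 2.62, 1.68 and 5.41 CPM in Atp7b-/- replicates 1 to 3, against 9.51, 4.93 and 3.34 CPM in the 3 wild type libraries. The groups overlapped, since the paired-end Atp7b-/- library was above both single-end wild type libraries. Means were 3.24 ± 1.94 CPM in Atp7b-/- and 5.92 ± 3.2 CPM in wild type livers (SD, n = 3 each). The log2 fold change was -0.88 (SE 0.32). Within layouts the ratio of Atp7b-/- to wild type was 0.569 in the paired-end and 0.521 in the single-end libraries. The log2 fold change was -0.91 without Atp7b-/- replicate 3, -0.70 without wild type replicate 2 and -0.99 without wild type replicate 3.

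Fuz encodes the protein that pairs with that of Intu. It lies on chromosome 7 (44896079 to 44902631, plus strand, GRCm38). It had 12.6, 12.6 and 9.81 CPM in Atp7b-/- replicates 1 to 3, and 10.8, 12.3 and 14.8 CPM in the 3 wild type libraries. The groups overlapped, with a log2 fold change of -0.11 (SE 0.21). It was -0.08 without Atp7b-/- replicate 3, -0.18 without wild type replicate 2 and -0.04 without wild type replicate 3. Fuz shares 720 exonic bases with Ap2a1, a clathrin adaptor gene on the opposite strand, so that reads from that stretch cannot be assigned without the strand setting of the counting, which the labels do not record. It shares another 1207 exonic bases with D7Bwg0826e, also on the opposite strand, which was not analysed here. Ap2a1 had a log2 fold change of -0.26 (SE 0.18, edgeR adjusted p = 0.556).

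Wdpcp encodes a WD-repeat protein and is a Bardet-Biedl syndrome gene in people. It lies on chromosome 11 (21572235 to 21898989, plus strand, GRCm38). It had 3.38, 3.09 and 6.06 CPM in Atp7b-/- replicates 1 to 3, from 58, 22 and 176 reads. In the wild type libraries it had 2.74, 1.44 and 0.556 CPM, from 60, 17 and 3 reads. The groups did not overlap, though the lowest Atp7b-/- value lay close to the highest wild type value, and the ranges of the genotypes did not overlap in 8.51% of all genes tested (5.23% with Atp7b-/- higher). Means were 4.18 ± 1.64 CPM in Atp7b-/- and 1.58 ± 1.1 CPM in wild type livers (SD, n = 3 each). The log2 fold change was 1.39 (SE 0.40). It was 1.15 without wild type replicate 3, the library with 3 reads, 1.58 without Atp7b-/- replicate 3 and 1.62 without wild type replicate 2. The start of Wdpcp shares 52 exonic bases with Mdh1, the abundant cytosolic malate dehydrogenase gene on the opposite strand, whose level was 512 ± 122 CPM in Atp7b-/- and 495 ± 224 CPM in wild type livers (SD, n = 3 each; log2 fold change 0.10, SE 0.26, edgeR adjusted p = 0.904).

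The difference between layouts, which did not enter the choice of the genes, was tested in the same fit. Intu was higher in the paired-end than in the single-end libraries by 1.23 on the log2 scale (SE 0.32, edgeR adjusted p = 0.0108) and Wdpcp by 1.09 (SE 0.39, edgeR adjusted p = 0.0407). Cplane1 (0.17, SE 0.30, adjusted p = 0.647) and Fuz (-0.34, SE 0.23, adjusted p = 0.229) did not pass. That 2 of the 4 genes passed is close to the 52.8% over all genes, of which 27.2% were higher in the paired-end libraries. A test of labelled sex with layout and genotype as terms, which here is also the test of a genotype difference that varies with layout, called 0.0154% of genes and none of the 4 (log2 female over male -0.21 to 0.27, adjusted p = 0.987 to 1). It rests on 6 libraries and on labels that the transcripts do not bear out. Even the Y-linked Ddx3y did not pass it (edgeR adjusted p = 0.987), so that neither kind of difference is excluded.

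Compared per kilobase of annotated exon, the order of the 4 genes depended on the genotype. In every Atp7b-/- library Cplane1 came first, followed by Fuz, Wdpcp and Intu. In every wild type library Fuz came first and Wdpcp last. Cplane1 averaged 28.3 ± 9.75 CPM per kb in Atp7b-/- and 0.839 ± 0.0821 CPM per kb in wild type livers. Fuz averaged 2.34 ± 0.326 CPM per kb in Atp7b-/- and 2.53 ± 0.404 CPM per kb in wild type livers. Intu averaged 0.436 ± 0.261 and Wdpcp 0.704 ± 0.276 CPM per kb in Atp7b-/- livers, against 0.798 ± 0.431 for Intu and 0.266 ± 0.185 CPM per kb for Wdpcp in wild type livers (SD, n = 3 each). In Atp7b-/- livers the ranges of Intu (0.227 to 0.728) and Wdpcp (0.52 to 1.02 CPM per kb) overlapped, though Wdpcp was the higher in each library. In wild type livers the ranges of Cplane1 and Intu overlapped and their order changed between libraries.

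Set among 12930 tested genes with an annotated exon length, Cplane1 ranked above 82.5% to 91.5% of genes per kb in the Atp7b-/- libraries and above 20% to 26.2% in the wild type libraries. Fuz was near the middle in all 6 libraries, above 35.1% to 43.7% of genes in Atp7b-/- and 38% to 48.1% in wild type livers. Intu (6.57% to 16.9% in Atp7b-/-, 16.1% to 27.8% in wild type) and Wdpcp (15.4% to 22.3% in Atp7b-/-, 4.08% to 12.8% in wild type) stayed in the low range in both.

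**Figure D4:**
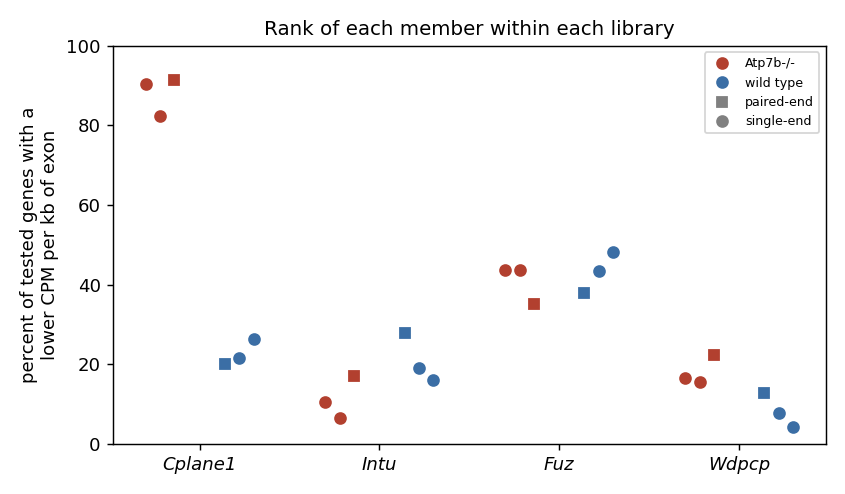
Share of tested genes (percent) with a lower CPM per kb of exon than each of the 4 genes, in each library, with Atp7b-/- libraries left of wild type libraries for each gene. Squares are paired-end and circles single-end libraries. Cplane1 lies above 82.5% of genes or more in Atp7b-/- and at 26.2% or less in wild type livers.

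No other planar polarity or ciliary gene of the lists was called by edgeR. Among 150 such genes in 11 lists, 147 were in the table and 127 could be tested, and none was called, against 2.49% of all genes. An unadjusted p under 0.05 was found for 18 of them, or 14.2%, against 14.5% of all genes. DESeq2 called 4 (Celsr2, Dnaic1, Cc2d2a and Pkd1), or 3.15%, against 5.93% of all genes. Without the filter on low counts 3 of 145 were called, or 2.07%, against 4.44% of all genes. Their median log2 fold change was 0.08, with 78 positive and 49 negative, against a median of -0.01 over all genes tested. The ranges of the genotypes did not overlap in 9 of them, or 7.09%, against 8.51% of all genes. No gene of these lists was called without Atp7b-/- replicate 3, wild type replicate 2 or wild type replicate 3 either. Their log2 fold changes ran from -2.66 to 2.36, so that all lay below the 5.07 of Cplane1.

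**Figure D5:**
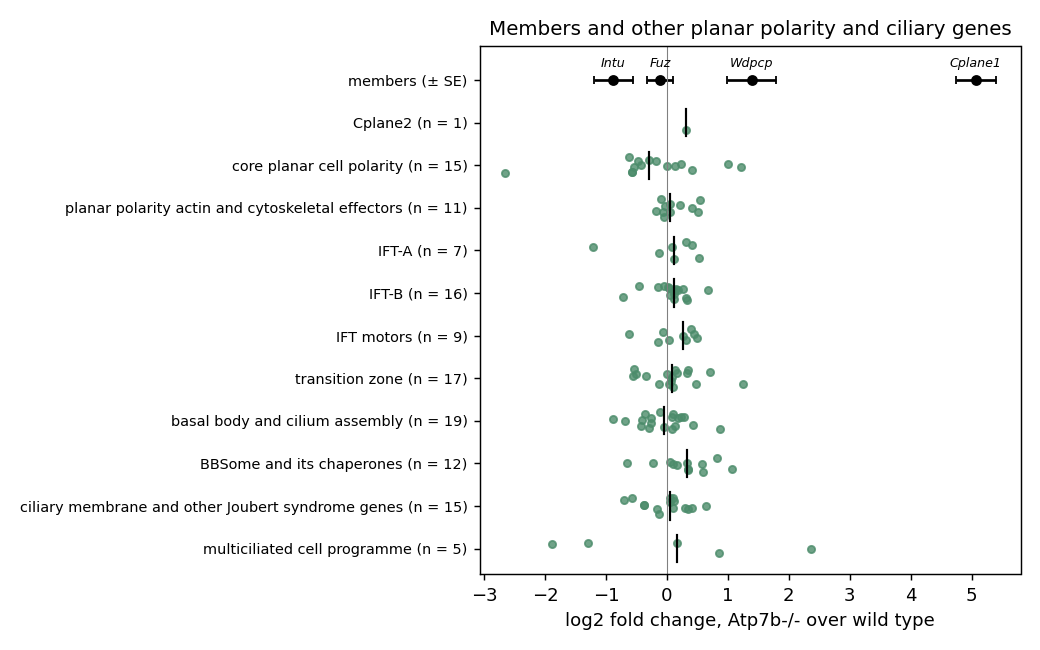
Log2 fold change (Atp7b-/- over wild type) of the 4 genes with their SE (black, top row) and of the other tested planar polarity and ciliary genes by list (green, 1 point a gene, median as a bar). No green point lies above 2.36, while Cplane1 is at 5.07.

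The remaining CPLANE gene, Cplane2 (named Rsg1 in the annotation), encodes a small GTPase that binds the other effectors. It was low everywhere, at 1.75, 1.4 and 0.517 CPM in Atp7b-/- replicates 1 to 3 and 0.503, 0.935 and 1.48 CPM in the 3 wild type libraries (log2 fold change 0.31, SE 0.47, edgeR adjusted p = 0.823). The groups overlapped, and in each the paired-end library was the lowest.

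Core planar polarity genes, which set up asymmetric complexes at the cell surface, had a median of -0.29 over 15 tested members of 20, none called. The adhesion receptor gene Celsr2 stood at 0.35, 0.281 and 0.413 CPM in Atp7b-/- replicates 1 to 3, against 0.823, 3.48 and 5.38 CPM in the 3 wild type libraries. Its groups did not overlap, and its log2 fold change of -2.66 (SE 0.65) had an edgeR adjusted p of 0.0762. The scaffold gene Scrib (-0.62, adjusted p = 0.249), the signal adaptor gene Dvl2 (-0.57, 0.285) and Ankrd6 (1.21, 0.313), the vertebrate relative of fly diego, were the next by p. The Wnt receptor gene Fzd6 had a log2 fold change of 0.14 (edgeR adjusted p = 0.897), and Fzd3, with 10 reads in Atp7b-/- and 7 in wild type livers, was too low to test. Among 11 effectors on the cytoskeleton, all tested and none called, the median was 0.06. Invs, which encodes the ciliary protein inversin, led these at 0.55 (edgeR adjusted p = 0.261), followed by the small GTPase genes Rhou (0.42, 0.495) and Cdc42 (0.51, 0.58).

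IFT-A, the retrograde transport complex whose assembly depends on the CPLANE proteins, had 7 tested genes, none called, with a median of 0.11. Ttc21b stood at 1.05, 1.68 and 3.03 CPM in Atp7b-/- replicates 1 to 3 and at 5.76, 4.42 and 2.41 CPM in the 3 wild type libraries, with overlap (log2 fold change -1.21, SE 0.39, edgeR adjusted p = 0.18). Ift122 was at 6.99 ± 1.31 CPM in Atp7b-/- and 5.11 ± 0.209 CPM in wild type livers (SD, n = 3 each; 0.42, edgeR adjusted p = 0.523), and Wdr35 had a log2 fold change of 0.52 (0.577). In the anterograde complex IFT-B none of 16 tested genes was called (median 0.11), with Ift80 at 0.67 and Ift27 at -0.72 (edgeR adjusted p = 0.25 and 0.329). None of 9 tested motor genes was called (median 0.27). Wdr60 had the smallest p and was lower in Atp7b-/- livers (-0.62, edgeR adjusted p = 0.504), followed by Tctex1d2 (0.49, 0.664). The genes of the dynein heavy chain Dync2h1 (0.32, 0.664) and the kinesin Kif3a (0.27, 0.689) came next.

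At the transition zone, the gate between cilium and cell body, 17 genes were tested and none was called (median 0.08). Cc2d2a, another Joubert syndrome gene, had 14.9, 8.98 and 16.2 CPM in Atp7b-/- replicates 1 to 3, against 7.54, 6.63 and 2.41 CPM in the 3 wild type libraries. These groups did not overlap (log2 fold change 1.25, SE 0.36, edgeR adjusted p = 0.137). Tmem67 was at 0.71 and Tctn1 at 0.48 (edgeR adjusted p = 0.551 and 0.593). Basal body and assembly genes (19 tested, median -0.04), BBSome genes (12 tested, median 0.33) and ciliary membrane and further Joubert syndrome genes (15 tested, median 0.06) also held no called gene. Their smallest adjusted p-values in edgeR were 0.282 for Cep131 (-0.88), 0.267 for Bbip1 (0.82) and 0.166 for the polycystin gene Pkd1 (-0.57). The other polycystin gene, Pkd2, had 20.2, 21.7 and 21 CPM in Atp7b-/- replicates 1 to 3, all below the 29.3, 27.3 and 48 CPM in the 3 wild type libraries (-0.71, SE 0.24, edgeR adjusted p = 0.211).

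Most genes of the multiciliated cell programme had few reads, though Dnaic1 had 711 in Atp7b-/- and 100 in wild type livers. Of 14 genes 5 could be tested and none was called, and the master regulators Mcidas and Gmnc had no read in any library. Foxj1, the factor that drives motile cilia, had 8 reads in Atp7b-/- and 7 in wild type livers. The dynein intermediate chain gene Dnaic1 stood at 22.5, 6.17 and 9.68 CPM in Atp7b-/- replicates 1 to 3, against 3.15, 1.1 and 3.34 CPM in the 3 wild type libraries (log2 fold change 2.36, SE 0.63, edgeR adjusted p = 0.137), without overlap. The next by p went the other way, with overlap: the RFX factor gene Rfx2 (-1.29, edgeR adjusted p = 0.183) and Ccno (-1.88, 0.325). Dnah5 followed at 0.85 (0.473).

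No marker of a liver cell type was called by edgeR. In bulk RNA fewer cells of a type and less RNA per cell cannot be told apart. For cholangiocytes, 7 of 10 markers were tested and none was called, with a median log2 fold change of 0.65. Their summed level was 72.1 to 115 CPM in Atp7b-/- and 47.8 to 73.9 CPM in wild type livers. Of the 7 tested, 5 had a positive log2 fold change. The keratin genes Krt19 and Krt7 had log2 fold changes of 0.00 and -0.30 (edgeR adjusted p = 0.999 and 0.814). Sox9 stood at 1.37, Pkhd1 at 0.65, Spp1 at 0.90 and Epcam at 0.74 (edgeR adjusted p = 0.104, 0.32, 0.334 and 0.568). The groups did not overlap for Sox9 and Epcam. The chloride channel gene Cftr had 10 reads in Atp7b-/- and 7 in wild type livers. Hepatocyte markers (8 tested, none called, median -0.27) summed to 54300 to 72100 CPM in Atp7b-/- and 78500 to 110000 CPM in wild type livers, without overlap. Most of that sum is albumin (Alb), at 27700, 37200 and 49900 CPM in Atp7b-/- replicates 1 to 3, against 77700, 66900 and 42900 CPM in the 3 wild type libraries, which overlap, and no single hepatocyte marker had ranges without overlap. The sums overlapped for stellate cell and fibroblast markers (352 to 463 CPM in Atp7b-/-, 288 to 594 CPM in wild type), endothelial markers (186 to 374 CPM in Atp7b-/-, 195 to 526 CPM in wild type) and Kupffer cell and leukocyte markers (201 to 261 CPM in Atp7b-/-, 182 to 350 CPM in wild type), again with none called. Among these only the stellate marker Des had ranges without overlap (log2 fold change -1.94, edgeR adjusted p = 0.526). It had 5.77, 6.31 and 3.62 CPM in Atp7b-/- replicates 1 to 3. In the 3 wild type libraries it had 97.5, 7.14 and 10.9 CPM, with wild type replicate 1 far above the others. The part of cell type makeup in the Cplane1 difference was not tested.

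The genes most like each of the 4 in their pattern were found by the Pearson correlation of log2 CPM over the 6 libraries after the mean of each layout was subtracted, among 12317 other genes. For Cplane1 these were Myo7b and Slc37a2 (r = 0.9997 each) and Ncaph (r = 0.9993). The unconventional myosin gene Myo7b had 23.7, 12.5 and 12.2 CPM in Atp7b-/- replicates 1 to 3, against 0.274, 0.765 and 0.927 CPM in the 3 wild type libraries. The sugar phosphate transporter gene Slc37a2 averaged 34.1 CPM in Atp7b-/- and 3.7 CPM in wild type livers, and the condensin gene Ncaph 8.99 CPM in Atp7b-/- and 0.973 CPM in wild type livers. For Wdpcp the nearest were Fkbp15, Mlh3 and Micu2 (r = 0.9998, 0.9992 and 0.9989), for Intu Ctsz, Kremen1 and Wipf3 (0.9976, 0.9975 and 0.9955) and for Fuz Timm23, Unc45a and H2afy (0.9968, 0.9960 and 0.9955). With so few libraries such values are common: 316 genes had r over 0.95 with Cplane1, 295 with Wdpcp, 104 with Intu and 93 with Fuz. Once layout means are subtracted, the Cplane1 pattern is largely the genotype difference by which it was chosen. Its nearest genes are therefore ones that were also higher in Atp7b-/- livers, and nothing further is read from them.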

How the data were processed

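Liver RNA of 6 mouse libraries was prepared with Trizol and RNeasy kits, per the labels' protocols. The deposited table holds the authors' raw counts, 1 row for each Ensembl identifier and 1 column for each library, with no normalization. The submitters' processing notes name STAR 2.4, featureCounts, edgeR 3.8 and build GRCm38. The annotation release, strand setting, treatment of multiply mapped reads and counting of read pairs are not recorded in the labels. Symbols, coordinates and exon lengths came from a GENCODE annotation of GRCm38, which named 40254 of 41388 identifiers. Replicates differed by more than sampling noise, so none were merged. The mean chi-square per gene was 34.8 for Atp7b-/- replicates 1 and 2 and 52.3 for wild type replicates 2 and 3, pairs of like layout. It was 246 to 448 for replicates of unlike layout. Replicate numbers are in accession order.

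Tests used edgeR 4.0.16 in R 4.3.3: TMM normalization, filterByExpr at a minimum count of 10, and the robust quasi-likelihood test in a model of layout plus genotype. Adjustment was by Benjamini-Hochberg over 12988 genes. Genes were called at an adjusted p under 0.05. SE is the absolute log2 fold change over the square root of F. CPM use TMM-scaled library sizes, and correlations log2 CPM with a prior count of 2. The script was tested on simulated data. Alternatives included DESeq2 1.42.0 and limma-voom (limma 3.58.1). Named list genes are among the 4 of each list with the smallest p, with a few added after their values were seen (Fzd3, Fzd6, Celsr1, Krt7, Krt19, Cftr, Foxj1, Mcidas, Gmnc, Xist, Ddx3y). Genes with the most similar pattern, overlapping genes and the nearest protein-coding neighbours were also taken by rule. Members and lists were chosen with earlier results of these data known.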

Additional observations from a re-analysis of the deposited data

Results flagged for a closer look

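The genotype difference ran in opposite directions in the 2 layouts for 7 of 91 tested genes among those named or ranked for naming, or 7.69%, with no overlap of the single-end libraries. Any difference between the paired-end libraries was counted, however small. Over all genes tested the share was 16.9%. The difference was tested as the labelled sex term, which here equals a genotype difference that varies with layout, and none of the 7 passed (edgeR adjusted p = 0.96 to 0.987). With 6 libraries and layout, genotype and sex all in the model, the test could hardly find such a difference, so that none is excluded. The ratio of Atp7b-/- to wild type was 1.26 in the paired-end and 0.743 in the single-end libraries for the kinase gene Mink1. For the planar polarity receptor gene Fzd6 it was 1.56 in the paired-end and 0.87 in the single-end libraries. For the Y-linked Ddx3y it was 0.783 in the paired-end and 2.37 in the single-end libraries, which include the wild type library with little Ddx3y. It was 0.911 in the paired-end and 1.96 in the single-end libraries for Wdr35 of IFT-A. For Ift52 of IFT-B it was 0.998 in the paired-end libraries, which is almost no difference (31.2 against 31.3 CPM), and 1.31 in the single-end libraries. For Med25, a neighbour of Fuz, it was 1.14 in the paired-end and 0.764 in the single-end libraries. For Ugp2, a neighbour of Wdpcp, it was 0.524 in the paired-end and 1.31 in the single-end libraries. None of the 4 CPLANE genes described above showed such a reversal.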

How the results depend on the processing

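The sign of the genotype difference was kept for Cplane1, Intu, Fuz and Wdpcp in all 13 alternatives. Leaving out 1 library at a time, the log2 fold change ran from 4.82 to 5.36 for Cplane1, -1.03 to -0.70 for Intu, -0.18 to -0.04 for Fuz and 1.15 to 1.62 for Wdpcp. The call by which Cplane1 was chosen held in each of these leave-outs but was lost when layout was left out of the model (5.08) or replaced by labelled sex (5.15), fits in edgeR that called 0 genes in all (545 and 381 at an unadjusted p under 0.05). The cause was not tested. For Wdpcp the log2 fold change was 1.42 without the filter and 1.38 in DESeq2. In these 2 settings, unlike the main fit, Wdpcp was called, as were 4.44% and 5.93% of all genes. Nothing is read from this, since the genes were chosen with results of this contrast known. Calls over all genes numbered 323, against 1116 without the filter, 770 in DESeq2, 126 in the single-end libraries alone and 119 to 323 with 1 library left out (131 without wild type replicate 1, 208 without Atp7b-/- replicate 1, 119 without Atp7b-/- replicate 3). Among the other planar polarity and ciliary genes none was called, against 3 without the filter, 4 in DESeq2, 1 in the single-end libraries alone (Celsr2) and 0 to 1 with 1 library left out (Celsr1 without Atp7b-/- replicate 2). The labelled sex test called 2 genes, and 159 without the filter. Wdpcp lost its layout call without the filter (1.04). Levels per kb of the longest transcript kept the order of the 4 genes in every library. Wdpcp, with as few as 3 reads in a library, is limited most by depth. No paired analysis was possible because the labels number no pairs: replicate numbers here only name the libraries.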
